A study of Mus musculus with 94 samples.

Results

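The adventitial progenitor fibroblast markers described here are 8 genes, *Pi16*, *Dpp4*, *Dpt*, *Mfap5*, *Sema3c*, *Clec3b*, *Cd248* and *Gsn*. They were named as known markers, with earlier results of these data in view, and all 8 had a row among the 16069 genes of the deposited table. The cells were primary PV-ADSCs, mesenchymal stem cells of the perivascular fat, taken without culture from fat that surrounds the thoracic aorta in mice of 8 weeks, labelled c57/bl (C57BL/6J in the methods of the study). No treatment or modified allele is given, and cells were sorted as live CD144-, CD45-, CD29+ and Sca1+. A full-length cDNA library was sequenced for each single cell, and the table holds 85 of the 94 cells described. All cells are of 1 condition and none is tied to an animal, so the 85 cells were treated as 1 sample, and neither a test nor a p value was computed between cells. Stromal cells were those with a value of at least 1000 for *Dcn*, which encodes the matrix proteoglycan decorin. There were 58 of them, and the 27 cells below that value are called the other cells.

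Fibroblasts of the adventitia and of fascia-like sheets around fat include cells that carry Pi16 and Dpp4 and are regarded as progenitors of more committed preadipocytes and of tissue fibroblasts. They are usually recognised by surface or secreted proteins (Pi16, Dpp4, Cd248, Sema3c), by proteins of the elastic fibre and collagen matrix (Mfap5, Dpt) and by products shared with many fibroblasts (Clec3b, Gsn). The opposite end of the same range is described by genes such as *Col15a1*, *Icam1*, *Sparcl1* and *Hsd11b1*. These genes belong to a list chosen with earlier results of these data in view.

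The stromal and other cells differed in the markers of both cell types. In total, 57 of the 58 stromal cells and 0 of the 27 other cells held at least 3 of 8 stromal markers at 10 reads or more, with *Dcn* left out as the gene of the rule, whereas 24 of the 27 other cells and 5 of the 58 stromal cells did so for 12 endothelial markers. *Cdh5*, which encodes the CD144 used in the gate, was at 10 reads or more in 21 of 27 other cells and in 1 stromal cell. The summed reads of the same 8 markers had a median of 45958.5 in stromal cells (6 to 202563) and of 10 in other cells (0 to 69). The depth was 1146945 to 4776510 reads in stromal cells and 1727402 to 3655526 in other cells, with a median of 2813 genes above 0 in the former and 1416 in the latter. Just below the *Dcn* limit lay cells at 269 and 239, and just above it cells at 6521 and 11185. The cell at 6521, number 50 by its title, stood apart. Its *Dcn* value rested on 69 reads multiplied by a factor of 94.5, against at least 18172 reads in each of the other 57 stromal cells, and it held 9796 reads of *Fabp4*, 1317 of *Cd36* and 0 of *Col1a1* and *Pdgfra*. This cell also had the fewest reads of the table, and held 1 of the 8 markers at 10 reads or more (*Gsn*, 28 reads). The rule was kept, and values without this cell are given beside some of the results.

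The matrix genes were the most widely shared of the 8 after *Gsn*. *Mfap5*, which encodes a microfibril-associated glycoprotein that binds fibrillin, had a median of 13466 in stromal cells (0 to 68652). It was above 0 in 57 of 58 stromal cells (98.3%, exact 95% interval 90.8 to 99.96) and at 10 reads or more in 55. On the scale of log2(value + 1), its mean level was 12.99 ± 2.86 (SD over 58 cells) in stromal cells and 1.75 ± 2.92 (SD over 27 cells) in other cells. In other cells the values ran from 0 to 7318, with a median of 0, and 2 of 27 cells reached 10 reads. The 2 groups of cells overlapped through a few stromal cells near 0 and a single other cell at 7318. *Dpt*, which encodes dermatopontin, a small matrix protein that binds decorin, had a median of 4912 in stromal cells (0 to 25399). It was above 0 in 56 of 58 stromal cells (96.6%, 88.1 to 99.6) and in 6 of 27 other cells (22.2%, 8.62 to 42.3), in which the highest value was 13.4 and 0 cells reached 10 reads.

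*Clec3b*, which encodes tetranectin, a secreted lectin that binds plasminogen, had the widest gap among the 8 in the share of cells above 0, but not at 10 or 100 reads. It was above 0 in 48 of 58 stromal cells (82.8%, 70.6 to 91.4), each with at least 23 reads. It was found in 0 of 27 other cells, which allows a share of up to 11.1%. Its values in stromal cells ran from 0 to 1212, with a median of 187. *Gsn*, which encodes the actin-severing protein gelsolin, was detected in all 85 cells of the table and differed only in level. Its values ran from 258 to 162323 in stromal cells, with a median of 32368, and from 3.94 to 265 in other cells, with a median of 21.5. The highest other cell lay above the lowest stromal cell by a small margin, and the mean level on the log2 scale was 14.64 ± 1.90 (SD over 58 cells) in stromal cells and 4.64 ± 1.22 (SD over 27 cells) in other cells. Over the 11478 genes above 0 in at least 3 cells, the median difference of the 2 means was 0.64.

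The markers *Cd248* and *Pi16* were, like *Clec3b*, present in part of the stromal cells. *Cd248*, which encodes endosialin, a transmembrane glycoprotein of mesenchymal cells, had a median of 867 (0 to 11221) and was above 0 in 50 of 58 stromal cells (86.2%, 74.6 to 93.9). *Pi16*, which encodes a peptidase inhibitor of the CAP protein family, had one of 1829 (0 to 29367.5) and was above 0 in 45 of 58 (77.6%, 64.7 to 87.5). Both were close to absent from other cells. *Cd248* was above 0 in 4 of 27 other cells with at most 6 reads, and *Pi16* in 7 of 27, of which 1 reached 10 reads, with 68.

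*Sema3c* and *Dpp4* were the least widely detected. *Sema3c*, which encodes a secreted class 3 semaphorin, a ligand of neuropilin and plexin receptors, had a median of 108 (0 to 9990) and was above 0 in 31 of 58 stromal cells (53.4%, 39.9 to 66.7). *Dpp4*, which encodes a membrane protease that trims peptides and is also called CD26, had one of 0 (0 to 8697) and was above 0 in 25 of 58 (43.1%, 30.2 to 56.8). The 25 cells with *Dpp4* fell into 17 that held at least 100 reads and 8 that held between 1 and 9, with none in between. *Sema3c* behaved alike in that 29 of its 31 cells held at least 100 reads. In other cells *Sema3c* reached 7 reads at most (5 of 27 cells above 0) and *Dpp4* 3 reads (1 of 27). For these genes, cells without the transcript and cells in which it escaped detection could not be told apart.

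By share of cells, 5 of the 8 markers were at least 50 percentage points higher in stromal than in other cells, namely *Clec3b* (82.8 points), *Dpt* (74.3), *Cd248* (71.4), *Mfap5* (61.2) and *Pi16* (51.7). Of all 11478 genes, 4.23% were. The difference was 39.4 points for *Dpp4* and 34.9 for *Sema3c*, and it was 0 for *Gsn*, which every cell held. The tally depended on the detection level. At 10 reads or more, 6 of the 8 markers were at least 50 points higher (3.70% of all genes), with *Sema3c* at 51.7 points and the widest gap for *Dpt* at 93.1. At 100 reads or more, 7 of the 8 were (2.33% of all genes), and *Gsn* differed by 90.9 points. *Dpp4*, at 29.3 points at either level, was the exception. The stromal cells also held more genes above 0 (medians of 2813 and 1416), and the part of this in the shares was not tested. When every cell was thinned to 1146945 reads, the stromal shares were 77.6% for *Pi16*, 82.8% for *Clec3b* and 86.2% for *Cd248*, the values without thinning, whereas that of *Dpp4* was 37.9%.

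**Figure D1:**
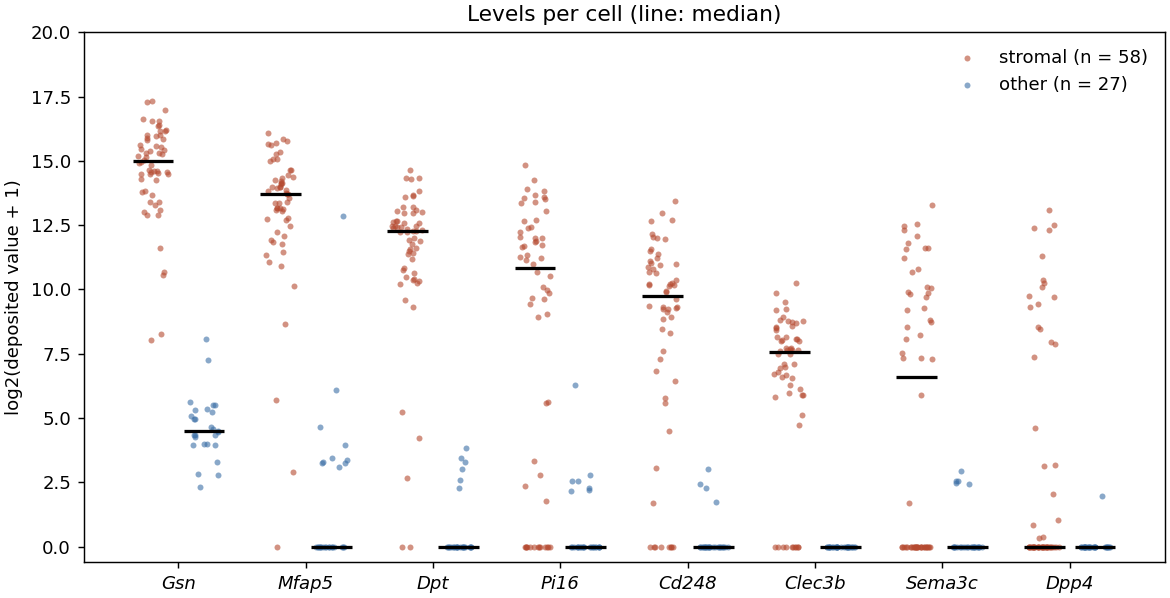
Values of the 8 markers in each cell, as log2(deposited value + 1), with the 58 stromal cells in red, the 27 other cells in blue and a line at the median of each. Genes are ordered by their median per length in stromal cells. All *Gsn* values are above 0, and *Clec3b* is at 0 in every other cell. *Sema3c* and *Dpp4* mostly split the stromal cells into a group at 0 and a group well above it. For *Dpp4*, 8 stromal cells with fewer than 10 reads lie between these groups.

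Levels were compared between genes only per length, as recovered reads divided by the annotated exon length and by the depth of the cell (RPKM). On this scale the stromal medians were 4840 for *Gsn*, 3242 for *Mfap5*, 927 for *Dpt*, 128 for *Pi16*, 125 for *Cd248*, 64.8 for *Clec3b*, 6.05 for *Sema3c* and 0 for *Dpp4*. The order thus ran from *Gsn* and the matrix genes *Mfap5* and *Dpt* down to *Sema3c* and *Dpp4*, and *Pi16* and *Cd248* lay side by side. In other cells the median of *Gsn* was 2.2, and those of the remaining 7 genes were 0.

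A stromal cell held a median of 6 of the 8 markers above 0 (3 to 8), and also of 6 at 10 reads or more (1 to 8, with cell number 50 at 1). All 8 were above 0 in 16 of 58 cells, and at 10 reads or more in 13. Other cells held a median of 2 (1 to 5) above 0, and of 1 at 10 reads. The markers *Pi16*, *Dpp4*, *Sema3c* and *Cd248* marked the 2 ends of this range. In 13 of 58 stromal cells *Pi16*, *Dpp4*, *Sema3c*, *Cd248* and the matrix gene *Mfap5* were all at 10 reads or more. In 7 of 58 none of *Pi16*, *Dpp4*, *Sema3c* and *Cd248* was. Of these 7 cells, *Dpt* and *Gsn* were both held by 6, *Clec3b* by 6 and *Mfap5* by 5, so most cells without the surface and secreted markers still held the others. Cell number 50 was among these 7, with 5 reads of *Dpt*, 7 of *Mfap5* and 0 of *Clec3b*.

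**Figure D2:**
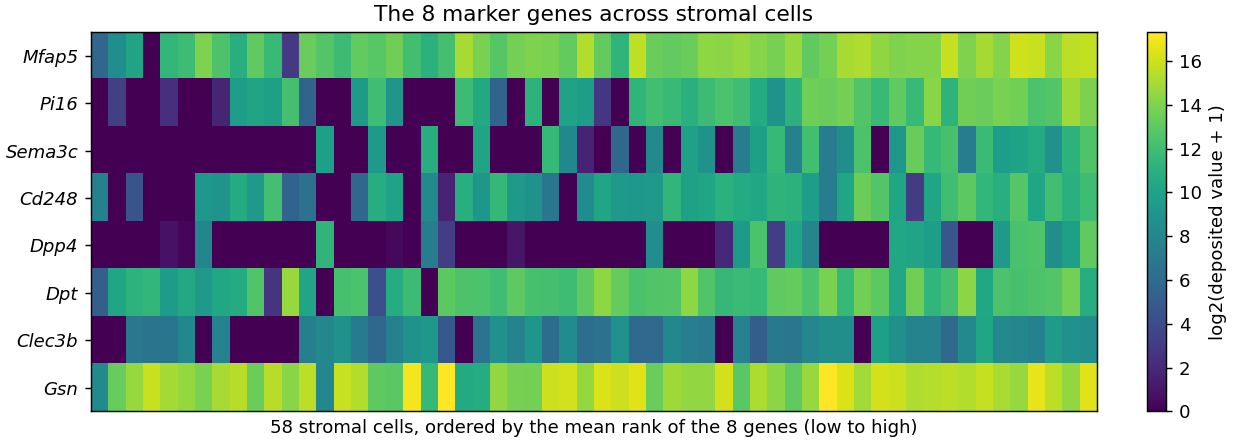
Levels of the 8 markers, as log2(deposited value + 1) from dark (0) to yellow (highest), in each of the 58 stromal cells. Cells run from left to right by the mean rank of the 8 genes, which places the high cells on the right by construction, and genes run from top to bottom by their correlation with the mean rank of the other 7. *Sema3c* and *Dpp4* are at 0 in most cells on the left, whereas *Gsn* and *Dpt* are well above 0 in most cells at both ends.

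Next, co-expression was described by Spearman correlations across the 58 stromal cells, which are cells of 1 sample and share differences in depth and in genes per cell. The 28 pairs had a median rho of 0.20 (-0.08 to 0.65), compared with 0.03 over all pairs of genes above 0 in at least 10 stromal cells. In total, 8 pairs had a rho of at least 0.3 (2.56% of all gene pairs did) and 5 of at least 0.5 (0.0558% of all gene pairs), and no pair was at -0.3 or lower. Without cell number 50 the first count was again 8, and the second was 3. The median was 0.19 without it.

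*Pi16*, *Mfap5* and *Cd248* formed the most closely correlated trio. The coefficient was 0.65 for *Pi16* and *Mfap5*, 0.61 for *Pi16* and *Cd248*, and 0.58 for *Mfap5* and *Cd248*. The relation between *Pi16* and *Mfap5* was also present among the 45 cells in which both were above 0 (rho 0.53). That between *Pi16* and *Cd248* lay largely in detection, as *Cd248* was at 10 reads or more in 39 of 42 cells with *Pi16* at that level and in 8 of 16 without, while rho was 0.29 in the 42 cells with both above 0. With Pearson's r on log2 values, *Pi16* and *Mfap5* reached 0.48, and without cell number 50 the rho values of the 3 pairs were 0.63, 0.61 and 0.57.

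*Sema3c* joined this trio and also *Dpp4*. The coefficient was 0.50 with *Pi16*, 0.50 with *Mfap5*, 0.49 with *Dpp4* and 0.33 with *Cd248*. Among the cells with both genes above 0 it was 0.17 with *Pi16* (27 cells), 0.20 with *Mfap5* (31), -0.08 with *Dpp4* (18) and 0.15 with *Cd248* (29), so the relations of *Sema3c* lay largely in detection. Of the 17 cells with *Dpp4* at 10 reads or more, 16 also held *Sema3c* at that level, compared with 14 of the 41 cells without *Dpp4*. Every one of these 17 cells held *Mfap5* at 10 reads or more, but so did 38 of the 41 cells without *Dpp4*. The rho of *Dpp4* and *Mfap5* was 0.39 over all stromal cells and 0.59 over the 25 with both above 0. *Dpp4* and *Pi16*, a pair often used together to name such cells, had a rho of 0.29, and 14 of the 17 *Dpp4* cells held *Pi16* at 10 reads compared with 28 of 41 without *Dpp4*. As values of *Dpp4* were 0 in 33 cells, its correlations mostly describe the presence or absence of the transcript.

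Over all stromal cells, *Dpt*, *Clec3b* and *Gsn* were less tied to the rest. The correlation with the mean rank of the other 7 markers was 0.29 for *Dpt*, 0.22 for *Clec3b* and 0.12 for *Gsn*, compared with 0.68 for *Mfap5*, 0.67 for *Pi16*, 0.54 for *Sema3c*, 0.50 for *Cd248* and 0.32 for *Dpp4*. Among the 13 pairs of *Gsn* or *Clec3b* with another marker, rho over all stromal cells ran from -0.08 (*Dpp4* and *Gsn*) to 0.23 (*Clec3b* and *Gsn*). In cells with both genes above 0, *Clec3b* was at 0.44 with *Pi16* (37 cells) and at 0.32 with *Cd248* (41 cells). With each of the remaining markers it was between -0.03 (*Mfap5*) and 0.16 (*Dpp4*) in such cells. The value for *Dpt* and *Gsn* depended on the measure, with a rho of 0.11 and a Pearson's r of 0.51 on log2 values. Among the 8 genes, rho with the number of genes per cell ran from -0.26 (*Gsn*) to 0.15, and rho with the reads per cell from -0.35 (*Gsn*) to 0.03. *Pi16*, *Sema3c*, *Clec3b* and *Cd248* had been multiplied by the same factor within each cell, and *Dpt* and *Mfap5* by another. On CPM of recovered reads, which do not hold these factors, the median rho of the 28 pairs was 0.18.

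**Figure D3:**
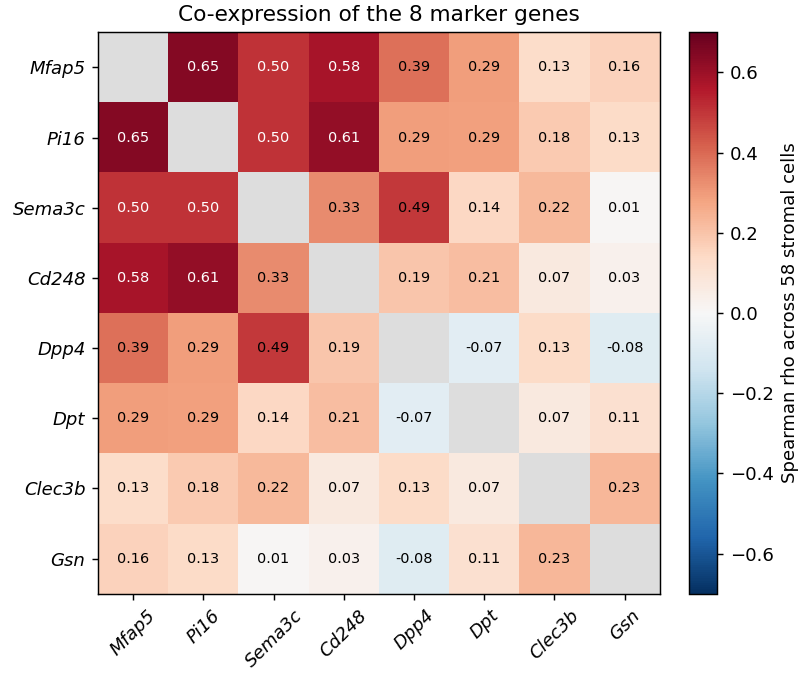
Spearman correlations of the 28 pairs of markers across the 58 stromal cells, from blue (negative) to red (positive), with each value printed and genes ordered by their correlation with the mean rank of the other 7. The upper left block of *Mfap5*, *Pi16*, *Sema3c* and *Cd248* holds values from 0.33 to 0.65, and the row of *Gsn* holds values from -0.08 to 0.23.

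**Figure D4:**
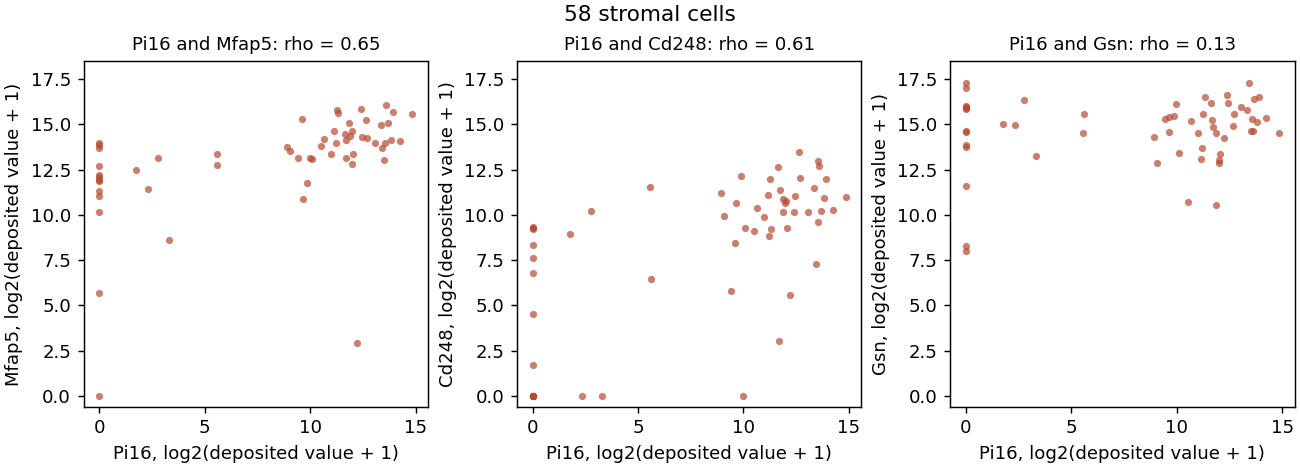
Level of *Mfap5*, *Cd248* and *Gsn* against that of *Pi16* in each of the 58 stromal cells, all as log2(deposited value + 1). Cells with *Pi16* mostly sit higher for *Mfap5* and *Cd248* than cells at 0, with a few exceptions (rho 0.65 and 0.61), and *Gsn* is high in most cells on both sides (rho 0.13).

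The windows upstream of 3 of these co-expressed genes are shown because *Sema3c* went with both *Pi16* and *Dpp4*. Of the 8 genes, 5 matched the RefSeq promoter windows of mouse build GRCm38.p6, and *Mfap5*, *Clec3b* and *Cd248* did not. Each line below gives the 250 bases before the annotated start, 5′ to 3′ on the strand of the gene, and capitals mark any of 6 motifs searched on both strands. These were TATAAA (in 12.4% of 32851 windows of this length), GGGCGG (32.7%), TGANTCA, an AP-1 site (6.75%), GGAATG, a TEAD site (12.6%), CCAAT (33.8%) and TGTTTAC, a forkhead site (3.17%), none of which contains another.
Pi16, chr17:29318632-29318881, plus strand: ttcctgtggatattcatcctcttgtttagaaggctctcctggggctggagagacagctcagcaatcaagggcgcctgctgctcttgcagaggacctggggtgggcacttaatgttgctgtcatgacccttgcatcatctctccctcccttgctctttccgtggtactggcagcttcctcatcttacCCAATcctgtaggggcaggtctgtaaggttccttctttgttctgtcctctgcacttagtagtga
Sema3c, chr5:17574566-17574815, plus strand: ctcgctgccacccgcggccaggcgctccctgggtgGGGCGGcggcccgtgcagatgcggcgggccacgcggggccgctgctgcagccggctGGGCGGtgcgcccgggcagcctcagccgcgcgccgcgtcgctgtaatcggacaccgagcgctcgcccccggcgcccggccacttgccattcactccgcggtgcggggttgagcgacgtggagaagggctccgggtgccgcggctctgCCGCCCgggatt
Dpp4, chr2:62412232-62412481, minus strand: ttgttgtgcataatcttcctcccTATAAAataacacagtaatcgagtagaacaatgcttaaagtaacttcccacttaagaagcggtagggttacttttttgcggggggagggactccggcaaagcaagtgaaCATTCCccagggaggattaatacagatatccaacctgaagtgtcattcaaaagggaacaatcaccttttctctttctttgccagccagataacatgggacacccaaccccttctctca
The *Pi16* window held 1 CCAAT, that of *Sema3c* held 3 GGGCGG, of which 1 was on the opposite strand, and that of *Dpp4* held 1 TATAAA, which began 227 bases before the start, and 1 GGAATG on the opposite strand. None of the 6 motifs was thus held by more than 1 of the 3 windows. The matches describe letters in these windows only.

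Each marker was then set against the other genes above 0 in at least 10 stromal cells, 5375 in all, and the genes with the most similar and most opposite pattern were named. *Pi16* was closest to *Ackr3* (rho 0.67), a scavenging chemokine receptor, *Pcsk6* (0.64), a proprotein convertase, and *Anxa3* (0.62), an annexin, and farthest from *Sparcl1* (-0.56) and *Steap4* (-0.51), a metalloreductase. *Mfap5* was closest to *Fbn1* (0.60), which encodes the fibrillin that its product binds, *Ackr3* (0.56) and *Anxa3* (0.55), and farthest from *Rbpms* (-0.49) and *C2* (-0.48), a complement component. As Pearson's r on log2 values, *Mfap5* was at 0.29 with *Fbn1*, -0.30 with *Rbpms* and -0.33 with *C2*. *Sema3c* was closest to *Prss23* (0.64), a secreted serine protease, *Anxa3* (0.57) and *Timp2* (0.54), an inhibitor of matrix metalloproteases, and farthest from *Col15a1* (-0.52) and *Steap4* (-0.49). *Cd248* was closest to *Ackr3* (0.54), *Ly6c1* (0.52) and *Ly6c2* (0.49), and farthest from *Gm5560* (-0.51) and *Il11ra1* (-0.46). *Ly6c1* and *Ly6c2* are near-identical copies whose reads may be split between them. *Dpp4* was closest to *Limch1* (0.54), *Arpc5* (0.53) and *Anxa3* (0.53), and farthest from *Gm10320* (-0.47) and *Gm12630* (-0.40). *Gm12630* was above 0 in 14 stromal cells but at 10 reads or more in 0, so its value rests on low counts. *Gm5560* was above 0 in 14 and at 10 reads or more in 7. *Anxa3* was thus among the 3 closest genes of *Pi16*, *Mfap5*, *Sema3c* and *Dpp4*, and *Ackr3* among those of *Pi16*, *Mfap5* and *Cd248*.

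The closest genes of the other 3 markers were different. *Dpt* was closest to *Pcolce2* (rho 0.45), an enhancer of procollagen processing, *Cul3* (0.45) and *Sesn1* (0.44), and farthest from *Mpdz* (-0.44) and *Cdc40* (-0.40). As Pearson's r on log2 values, its figures were 0.25 for *Cul3*, 0.29 for *Sesn1* and -0.29 for *Cdc40*. *Clec3b* was closest to *Aes* (0.48), *Fkbp9* (0.45) and *Washc2* (0.45), and farthest from *Fgl2* (-0.40) and *Rrp1* (-0.38), with 0.32 for *Washc2* and -0.23 for *Rrp1* as Pearson's r. *Gsn* was closest to *Dpep1* (0.52), a membrane dipeptidase, *Fth1* (0.51), the ferritin heavy chain, and *Phlda1* (0.49), and farthest from *Gmfb* (-0.48) and *Gm12854* (-0.48). On CPM of recovered reads, in which rho of *Gsn* with the reads per cell was 0.37 in place of -0.35, the values were 0.40 for *Fth1*, 0.33 for *Phlda1* and -0.25 for *Gm12854*, and Pearson's r on log2 values was -0.16 for *Gm12854*. On the deposited values, *Gsn* also went with the immediate early genes, which were not examined on CPM. Its median rho over all 5375 genes was -0.03. Its median rho with 20 genes of the dissociation response was 0.24, and 4 of the 20 had a rho of at least 0.3 (1.13% of all genes), *Fosb* (0.47), *Egr1* (0.43), *Jund* (0.35) and *Zfp36* (0.31), all transcription or RNA decay factors of the early response. Across the other 7 markers, the median rho with this list ran from -0.12 (*Pi16*) to 0.08 (*Clec3b*).

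An 8-gene score, the mean rank of the 8 markers in each stromal cell, summarised them. Among 52 further genes known from adventitial progenitors, 45 were above 0 in at least 10 stromal cells. Of these 45, 31 had a rho of at least 0.3 with the score and 0 had one of -0.3 or lower. The list, like the 8 markers, was chosen with earlier results of these data in view. Its shares are therefore descriptions and not independent support. Of all 5375 genes, 3.42% had a rho of at least 0.3 and 1.27% one of -0.3 or lower. The median rho was 0.38 for the list and 0.02 over all genes. The leading genes of the list were *Ackr3* (0.63), *Anxa3* (0.62), *Gfpt2* (0.61), an enzyme of the hexosamine pathway, *Fn1* (0.61), fibronectin, *Timp2* (0.59), *Cd55* (0.57), a complement decay factor, *Efhd1* (0.55), *Igfbp6* (0.54), an IGF binding protein, and *Pcolce2* (0.53). These 9 genes and *Hn1* (0.63) were the 10 genes with the highest rho of all 5375. *Cd55* was above 0 in 20 of 58 stromal cells, and *Fn1* in 53. The other 22 members at 0.3 or above were *Fbn1*, *Opcml*, *Tppp3*, *Emilin2*, *Pla1a*, *Igfbp5*, *Uchl1*, *Adgrd1*, *Lrrn4cl*, *Cmah*, *Dbn1*, *Creb5*, *Procr*, *Limch1*, *Axl*, *Ly6c1*, *Ly6a*, *Cadm3*, *Efemp1*, *Tgfbr2*, *Aldh1a3* and *Metrnl*. *Ly6a* encodes Sca1, on which the cells had been sorted. Some genes of this list were also genes of the other cells. At 10 reads or more, *Ly6c1* was held by 23 of 27 other cells, *Ly6a* by 20, *Igfbp6* by 12 and *Anxa3* by 10. The median of *Ly6c1* was 10902 in other cells and 1813 in stromal cells. Every remaining gene of the list was held by at most 8 other cells. The lowest members were *Mfap4* (-0.05), *Cd9* (0.03) and *Tnfaip6* (0.10), and *Cd34* was at 0.17 and *Thy1* at 0.10.

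Genes of committed preadipocytes and parenchymal fibroblasts lay on the other side. This list of 44 genes was also chosen with earlier results of these data in view. Of the 44, 43 had a row and 33 were above 0 in at least 10 stromal cells. In total, 12 had a rho of -0.3 or lower with the score and 2 of at least 0.3, and the median was -0.27. The 12 genes were *Hsd11b1* (-0.51), which activates glucocorticoids, *Sparcl1* (-0.46) and *Col15a1* (-0.43), matrix proteins, *Apoe* (-0.39), *Steap4* (-0.38), *F3* (-0.37), tissue factor, *Vcam1* (-0.34), *Fabp4* (-0.33), *Plin2* (-0.33), *Gdf10* (-0.31), *Mgp* (-0.31) and *Icam1* (-0.30). The 2 genes on the side of the markers were *Sfrp4* (0.39), a secreted Wnt antagonist, and *Ebf1* (0.34), a transcription factor. Several of the 12 were also genes of the other cells. *Fabp4* had a median of 23633 in other cells and of 5.47 in stromal cells. It was at 10 reads or more in 23 of the 58 stromal cells, so its rho rests largely on low counts. At 10 reads or more, *Fabp4* was held by 27 of 27 other cells, *Sparcl1* by 17 and *Apoe* by 15, whereas *Hsd11b1*, *Col15a1*, *Steap4*, *F3*, *Vcam1* and *Gdf10* were held by 0 of 27, which allows a share of up to 11.1%. Without cell number 50 the counts of 31 and 12 were the same, while 2.95% of all genes had a rho of at least 0.3 and 1.89% one of -0.3 or lower. The count of 12 fell to 9 with Pearson's r on log2 values, on CPM of recovered reads, and at a *Dcn* limit of 100. It was 12 in partial correlations given genes per cell and 11 in those given reads per cell. The median of this list was -0.17 with Pearson's r, -0.21 on CPM and -0.23 at the lower *Dcn* limit.

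The score was set beside depth and the markers of other cell types. Its rho was 0.04 with genes per cell, -0.19 with reads per cell, -0.28 with the summed stromal marker reads scaled to depth and -0.04 with the summed endothelial ones. Over all 5375 genes, 3.42% had a rho with the score of at least 0.3 and 1.27% one of -0.3 or lower. In lists of 6 to 20 genes, counts of 0 or 1 say little beside these shares. Of the 12 endothelial markers, 6 could be compared, and 1 had a rho of at least 0.3, *Tek* (0.44), an angiopoietin receptor that was above 0 in 11 stromal cells and at 10 reads or more in 8 of 27 other cells. Of the 20 genes of the dissociation response, 0 had a rho of at least 0.3 and 1 had one of -0.3 or lower, *Hsp90aa1* (-0.37), and their median was -0.00. Of 6 mesothelial markers 1 could be compared, *Wt1* (0.13), and at least 3 of them were held by 2 of 58 stromal cells at 10 reads. The 9 stromal markers, of which only *Dcn* was used to define the stromal cells, had a median rho of -0.01, with 0 of 9 past 0.3 in either direction. Among them, *Thy1* is also on the adventitial progenitor list and *Lum* on the preadipocyte and parenchymal list.

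The 8 markers took unequal parts in these relations. Of the 45 adventitial progenitor genes, 29 had a rho of at least 0.3 with *Pi16* (3.35% of all genes), 29 with *Mfap5* (3.93%), 22 with *Sema3c* (1.93%), 21 with *Cd248* (2.81%), 13 with *Dpp4* (3.20%), 5 with *Dpt* (1.60%), 2 with *Clec3b* (2.20%) and 1 with *Gsn* (1.13%). Of the 33 preadipocyte and parenchymal genes, 15 had a rho of -0.3 or lower with *Pi16* (2.21% of all genes), 8 with *Sema3c* (1.10%), 6 with *Cd248* (1.30%), 5 with *Mfap5* (0.967%), 3 with *Dpp4* (0.688%), 2 with *Dpt* (0.930%), and 0 with *Clec3b* (0.558%) and *Gsn* (2.10%). The order of the markers was similar on both lists, with *Pi16* first or tied first and *Clec3b* and *Gsn* near or at the level of all genes.

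**Figure D5:**
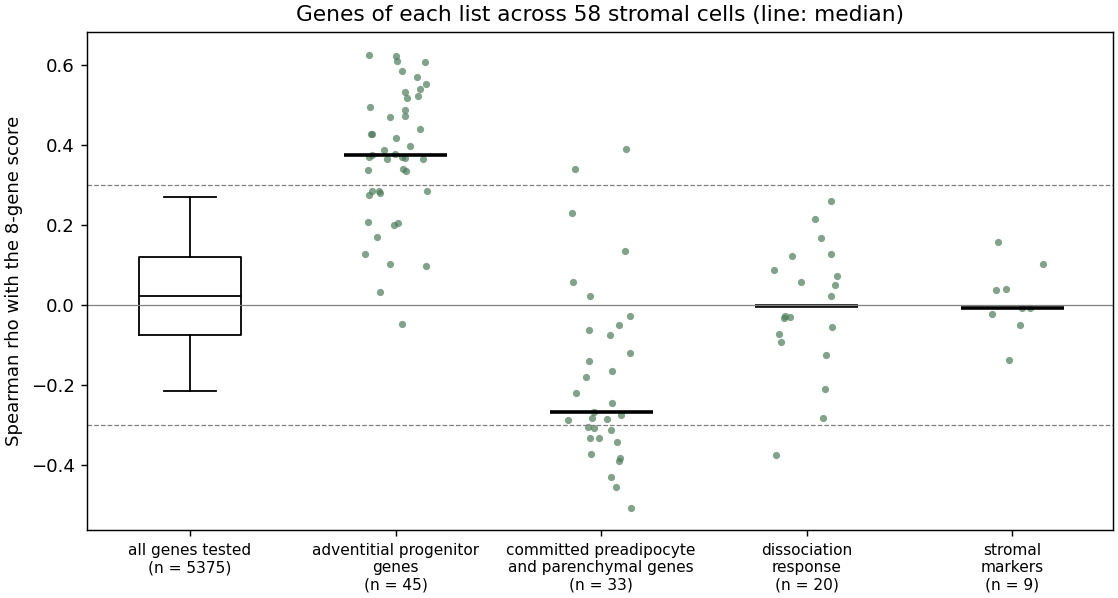
Spearman correlation of genes with the 8-gene score across the 58 stromal cells, as a box for all 5375 genes (median, quartiles, whiskers at the 5 and 95 percentiles) and as points for the genes of 4 lists, with a line at each median and dashed lines at 0.3 and -0.3. The 45 adventitial progenitor genes have a median of 0.38 and the 33 preadipocyte and parenchymal genes one of -0.27, and the other lists centre near 0.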

How the data were processed

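The authors aligned reads of the single-cell libraries to mm9 with HISAT2 2.0.5, sorted them with SAMtools 1.4, assembled them with StringTie 1.3.3 and scaled them with scater, keeping cells by aligned reads. The deposited table holds a signal, normalized read counts of 85 cells, and the program that counted reads is not given in the sources used here. It has 16069 genes, each above 0 in at least 1 cell.

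Values were used as log2(value + 1) or as ranks. In 5404 genes they were whole reads multiplied by 1 of 13 factors per cell, and the other 10665 genes held whole numbers without a factor, except in 2 values. Each factor was found from the steps between values, and division gave recovered reads, whole for 144267 of 144272 values above 0 in the 5404 genes and for 200965 of 200972 in all genes (tolerance 2e-09 of the value or 1e-08 reads, if larger), while 7 were rounded. On reads simulated for 15922 genes with known factors, 99.9995% of the values above 0 were recovered. Recovered reads gave the depth and detection at 10 or 100 reads. Reads per kilobase used exon lengths of GENCODE M21 on GRCm38, another build than mm9. Detection was a value above 0. Intervals are Clopper-Pearson intervals at 95%, limits for 0 cells are 3 cells of the total, and both cover counting error only.

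The members and gene lists were chosen with earlier results of these data known. The genes named were the 8 markers, for each the 3 genes of highest and 2 of lowest correlation, for the score the 10 highest and 5 lowest, and list genes past 0.3 or -0.3. Correlations are descriptions. The limits of 0.3 and 0.5 on rho and of 50 points on shares carry no test. Immune, adipocyte and Schwann markers had 1 row each and none was above 0 in 10 stromal cells, and the 1 mural marker of 11 that could be compared had a rho of -0.19. Alternatives were other detection levels, thinning, other limits on *Dcn*, *Col3a1* in its place, CPM of recovered reads, Pearson's r, a pseudocount of 10 and partial correlations. Python 3.11.15, numpy 2.4.6, pandas 2.3.3, scipy 1.17.1 and matplotlib 3.10.9 were used.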

Additional observations from a re-analysis of the deposited data

How the results depend on the processing

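The shares of cells depended on the detection level. Of stromal cells, *Dpp4* was held by 29.3% at 10 reads and by 29.3% at 100 reads, *Clec3b* by 67.2% and *Cd248* by 74.1% at 100 reads. Of other cells, *Pi16* was held by 3.70% at 10 reads and 0% at 100, *Mfap5* by 7.41% and 3.70%, *Dpt*, *Sema3c*, *Cd248* and *Dpp4* by 0% at either level, *Dpp4* by 0% after thinning, and *Gsn* by 7.41% at 100. Requiring a *Dcn* value of 10000 or a *Col3a1* value of 1000 left out only cell number 50, the cell of fewest reads, and under each of these, as without that cell, 3 pairs had a rho of at least 0.5 in place of 5. Leaving out that cell, and partial correlations given the reads per cell, were chosen after seeing the data. The other 179 alternative values of the main results stayed within their interval, SD, 0.1 of rho or 1.5 times the count. Some of these limits were wide. The SD over cells ran from 1.90 (*Gsn*) to 5.34 (*Pi16*) on the log2 scale. A mean of *Mfap5* of 11.52 on CPM, compared with 12.99, thus counted as unchanged. A count of 9 preadipocyte and parenchymal genes in place of 12 did too. The median rho of the 28 pairs ran from 0.18 to 0.25, that of the adventitial progenitor list from 0.36 to 0.41, that of the preadipocyte and parenchymal list from -0.27 to -0.17, that of the dissociation list from -0.05 to 0.04, and that of all genes from 0.00 to 0.04. Of 224 alternative values of single pairs, 9 moved by 0.1 or more, as did 17 of 440 of the named partner genes. The settings that left out only cell number 50 held the same 57 cells, so these totals count 1 alternative more than once. Most of the values that moved, of pairs and of partners, did so with Pearson's r. Among them were *Pi16* and *Mfap5* (0.65 to 0.48) and *Dpt* and *Gsn* (0.11 to 0.51). No paired analysis was possible because there is 1 condition. *Dpp4* and *Sema3c* were at 0 in 33 and 27 of 58 stromal cells, and how many of these zeros are missed transcripts is not known. The cells come from an unknown number of mice, so no value measures the spread between animals.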

Other observations

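In the other cells, *Mfap5* was high in a single cell, number 55 by its title, with 7630 recovered reads of 2910409 and 1731 genes above 0. The same cell held 68 reads of *Pi16*, the most of any other cell, but 40 reads of *Dcn* and 0 of *Col1a1*, *Pdgfra*, *Dpp4*, *Dpt*, *Sema3c*, *Clec3b* and *Cd248*. It also held 2815 reads of *Cdh5*, 1778 of *Fabp4* and 216 of *Flt1*. The second highest *Mfap5* count among other cells was 67 reads.

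Among stromal cells, number 49 by its title had the highest *Dpt* value of the table, 25399, with *Pi16* at 4776 and *Mfap5* at 6.45, and *Sema3c*, *Clec3b* and *Dpp4* at 0. Number 18 held *Dpp4* at 2517 and *Sema3c* at 925, with *Pi16*, *Dpt* and *Cd248* at 0 and the lowest *Gsn* value of the stromal cells, 258. Both cells were picked after their values had been seen.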
